A study of Mus musculus with 26 samples.

Results

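Recruited macrophages of the mouse lung were compared between 7 and 3 days after lipopolysaccharide (LPS, a wall component of Gram-negative bacteria), given by a route that the labels write as IT. These cells, called BM-derived macrophages (BM) in the labels, were represented by 7 of the 26 RNA-seq libraries of the series: 3 from day 7 and 4 from day 3. They were chosen by their labels and not by any measured value. Both groups came from lung and both had received LPS, so the comparison has no untreated BM group. The other 19 libraries are BM at day 1 and resident alveolar macrophages (AM) without LPS and at days 1, 3 and 7, of which AM day 7 (n = 4) and AM day 3 (n = 3) are used below. The column names of the untreated AM libraries, which enter the shared fit, hold the word Young. For the groups compared, the labels used here give no strain, genotype, age, sex, LPS dose or sorting gate, and nothing in them ties replicates to different mice. The p-values therefore measure a spread between libraries, which may be technical in part. That spread was estimated over all 26 libraries and is not that of the compared groups alone, for which counts are also given. Libraries are named by group and replicate, as in BM_day7.1.

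After an injury of the air spaces, monocytes leave the blood, enter the lung and become macrophages. Cells that stay may take on features of the resident alveolar macrophage, a cell that clears surfactant lipid and depends on the growth factor GM-CSF and on the nuclear receptor PPARγ. Interferons, released during inflammation, switch on antiviral genes in cells that carry their receptors, and these genes fall silent again when the signal ends.

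The values are read counts per gene, given here as CPM (read counts as a share of the TMM-scaled library total). A change is a log2 fold change ± standard error (SE) from edgeR, day 7 over day 3, and a gene is called where its Benjamini-Hochberg adjusted p over all genes tested is under 0.05. Day 7 libraries held 10054930 to 24729188 counts and 12426 to 14918 genes with at least 10 counts, and day 3 libraries 11382242 to 22280695 counts and 7449 to 12112 such genes. The median correlation of a library with its group was 0.970 to 0.980 at day 7 and 0.734 to 0.886 at day 3. It was 0.830 to 0.986 in the other 19 libraries, so the groups that share the estimated spread differ in it. BM_day3.1 had the fewest genes and the lowest correlation, and its most abundant transcript was the fibroblast collagen Col1a1. Transcripts of 4 Y-linked genes summed to 0.103 to 3.81 CPM in the day 7 libraries, and to 0.165 and 0.0479 CPM in BM_day3.1 and BM_day3.2 but 167 and 169 CPM in BM_day3.3 and BM_day3.4, so the comparison is in part also one between sexes. The labels used here give library numbers but name no batch, and the numbers were split at a cut chosen here. Up to 24 lie BM_day7.3, BM_day3.1 and BM_day3.2, all 3 being low in Y-linked RNA. In this lower range BM_day7.3 is thus the only day 7 library, and counts of calls within it cannot show that genes did not change. Fits within either range left out only BM day 3 and day 7 libraries of the other range and kept all AM and BM day 1 libraries. From 26 on lie BM_day7.1, BM_day7.2, BM_day3.3 and BM_day3.4, among which day and sex cannot be told apart. The numbers of BM day 1 run across the cut, from 22 to 26. Of these, 22, 23, 24 and 26 are also held by AM libraries, so the numbers do not form a single series. BM_day7.1 and BM_day7.2 were also close to each other, with a median absolute log2 ratio of 0.0524 over 768 genes with at least 10000 counts in the pair together, against 0.319 and 0.311 when each was paired with BM_day7.3. They differed by more than sampling noise and were kept as 2 libraries.

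General macrophage transcripts were present in all 7 libraries. Csf1r, the receptor for the macrophage growth factor CSF1, had 1576, 1581 and 1310 CPM at day 7, against 1447, 2352, 2791 and 2404 CPM at day 3. The lysosomal glycoprotein Cd68 had 564, 580 and 867 CPM at day 7, against 395, 613, 573 and 666 CPM at day 3. Adgre1, which encodes F4/80, had 793, 801 and 815 CPM at day 7, against 220, 1043, 1457 and 1016 CPM at day 3, and was lowest in BM_day3.1. Ly6g, which defines mouse neutrophils, was at 0, 0 and 0.309 CPM at day 7, against 0, 3.11, 0 and 0 CPM at day 3. Other neutrophil markers were present, and the 14 together, Lcn2 among them, summed to 170 to 496 CPM at day 7 and 597 to 5171 CPM at day 3. The general macrophage markers thus fit the label, but neutrophil RNA was present too, most of it in BM_day3.1. That library also carried RNA of fibroblasts, described at the end.

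Of 17143 genes tested, 683 were called between day 7 and day 3 (3.98%), of which 529 rose (3.09%) and 154 fell (0.898%). These shares stand beside each count of called list members in BM given below. Without regard to the test, every day 7 library lay above every day 3 library for 2778 genes (16.2%) and below every one for 600 (3.5%). The median log2 fold change of all genes was 0.21. Of the 529 genes that rose, 260 had 0 counts in all 4 day 3 libraries and 233 had a day 3 mean of at least 5 CPM, whereas none of the 154 that fell had 0 counts in all day 7 libraries. The day 3 libraries detected fewer genes at similar totals, and the part this had in the rises was not tested. The count of calls was 308 without BM_day7.1, 314 without BM_day7.2 and 441 without BM_day7.3. It was 41 of 13312 genes tested when the 2 groups were fitted alone, and of these 11 rose and 30 fell.

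**Figure D1:**
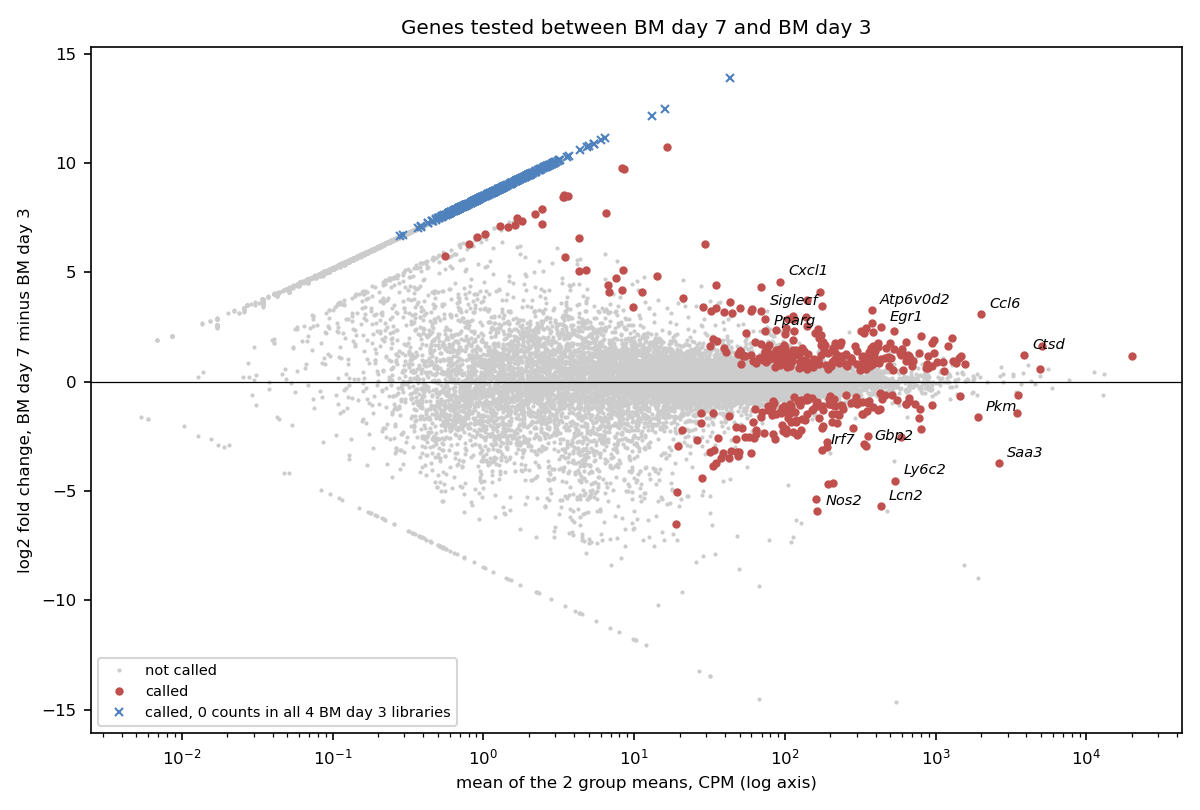
Log2 fold change (BM day 7 minus BM day 3) of each of the 17143 genes tested against the mean of the 2 group means in CPM on a log axis, with called genes filled or, where all 4 day 3 libraries had 0 counts, crossed. The 260 crossed genes form a line at the upper left, where the fitted change is no measure of size, and Ccl6 and Atp6v0d2 stand high and Saa3, Ly6c2 and Nos2 low among abundant genes.

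Transcripts that mark the resident alveolar macrophage were higher at day 7. In the list of alveolar macrophage identity genes, 14 of 24 members tested rose and none fell, against 3.09% and 0.898% of all genes, and the list's median log2 fold change was 2.29 against 0.21 for all genes. With the 2 BM groups fitted alone 1 of the 24 rose, at nearly the same median of 2.28. In bulk RNA, fewer cells of a type and less RNA per cell cannot be told apart, and this holds for every result given here. Ccl6, a chemokine that alveolar macrophages make in quantity (ENSMUSG00000018927, chromosome 11, 83587882 to 83593087 of GRCm38), had 3909, 3993 and 2907 CPM at day 7, against 335, 625, 411 and 302 CPM at day 3. Its change was 3.11 ± 0.28 (adjusted p = 3.7e-07). The groups lay far apart, and the day 7 mean of 3603 ± 604 CPM (SD, n = 3) was close to that of AM day 7, where Ccl6 ranged from 3699 to 3912 CPM.

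Atp6v0d2, a subunit of the proton pump that acidifies lysosomes (ENSMUSG00000028238, chromosome 4, 19876841 to 19922605), had 768, 830 and 453 CPM at day 7, against 80.0, 119, 58.6 and 26.7 CPM at day 3. It rose by 3.26 ± 0.35 (adjusted p = 6.6e-06), with no overlap. Pparg, which encodes PPARγ (ENSMUSG00000000440, chromosome 6, 115360951 to 115490399), had 159, 154 and 56.5 CPM at day 7, against 25.7, 31.1, 19.5 and 23.1 CPM at day 3. Its rise of 2.31 ± 0.34 (adjusted p = 0.00022) came with a low value in BM_day7.3, which still exceeded all day 3 libraries. Siglecf, the sialic acid-binding lectin used to sort alveolar macrophages (ENSMUSG00000039013, chromosome 7, 43351341 to 43359531), had 177, 177 and 24.1 CPM at day 7, against 15.2, 19.4, 16.7 and 2.57 CPM at day 3. It rose by 3.23 ± 0.59 (adjusted p = 0.0025), yet BM_day7.3 was only a little above the highest day 3 library. With the 2 BM groups fitted alone Ccl6 was called (adjusted p = 0.020), and Atp6v0d2 (0.051), Pparg (0.093) and Siglecf (0.10) were not. Itgax, which encodes the integrin CD11c, had 1044, 989 and 452 CPM at day 7, against 286, 382, 344 and 300 CPM at day 3, a rise of 1.34 ± 0.29 (adjusted p = 0.0068). Its call was lost without BM_day7.1 (adjusted p = 0.067) or BM_day7.2 (0.057).

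**Figure D2:**
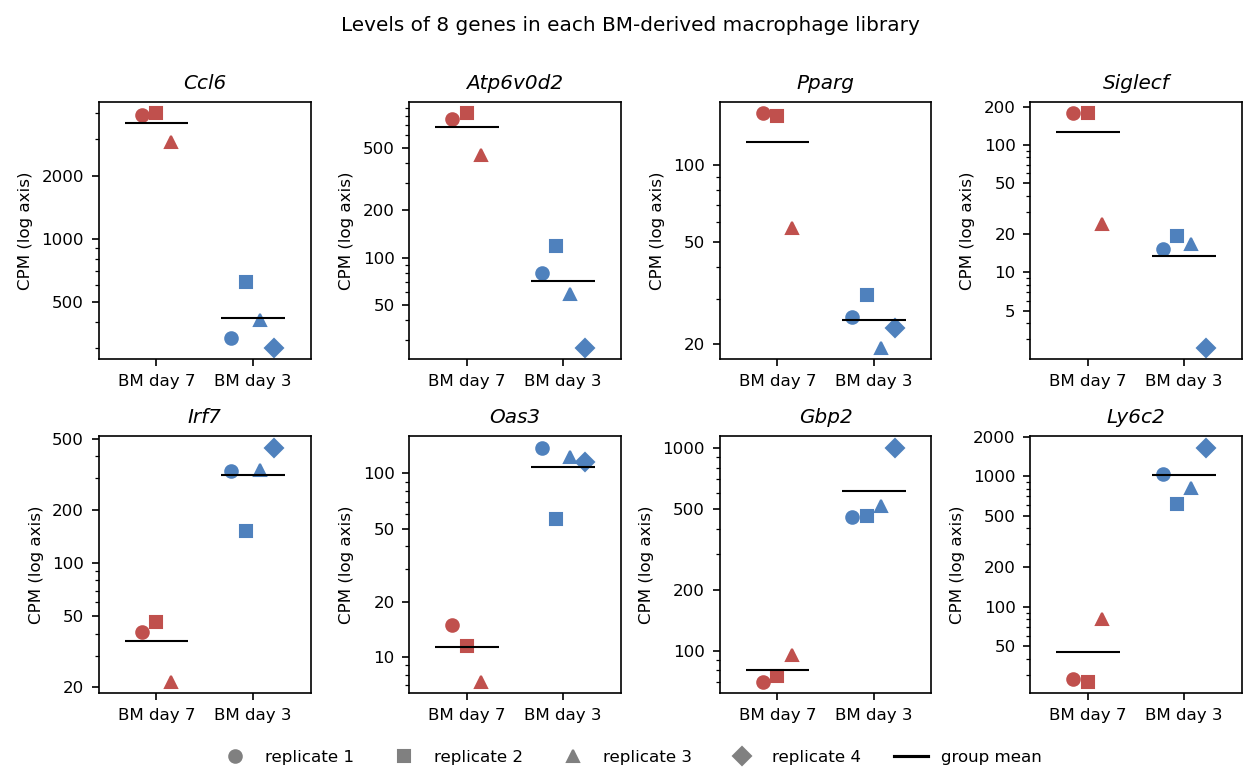
CPM on a log axis of 8 genes in each library, with BM day 7 (red, n = 3) left of BM day 3 (blue, n = 4), symbols by replicate and bars at the group mean. Ccl6, Atp6v0d2, Pparg and Siglecf lie higher and Irf7, Oas3, Gbp2 and Ly6c2 lower in every day 7 library than in every day 3 library, and for Siglecf BM_day7.3, at 24.1 CPM, is nearest to the day 3 values. No overlap was a condition for naming Oas3.

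BM_day7.3 differed from the other day 7 libraries across this list. Car4, a carbonic anhydrase of alveolar macrophages, had 485, 461 and 17.6 CPM at day 7, against 11.1, 72.2, 18.1 and 15.7 CPM at day 3, and the keratin Krt79 had 474, 481 and 20 CPM, against 0.413, 30.5, 32 and 11.6 CPM. In both genes BM_day7.3 lay within the range of day 3. Marco, a scavenger receptor for particles, had 412, 443 and 12.2 CPM at day 7, against 28.9, 135, 78.1 and 62.1 CPM at day 3, so that BM_day7.3 was below all day 3 libraries. The chitinase-like protein Chil3 had 10238, 11011 and 1729 CPM at day 7, against 3613, 2649, 1133 and 2331 CPM at day 3. Chil3 rose by 1.66 ± 0.39 (adjusted p = 0.016), but its call was lost without BM_day7.1 (adjusted p = 0.11) or BM_day7.2 (0.13), and its change was −0.85 within library numbers up to 24. The lipid droplet protein Cidec had 88.1, 82.8 and 5.36 CPM at day 7, against 0, 0, 1.92 and 0.877 CPM at day 3, a rise of 6.29 ± 1.45 (adjusted p = 0.016) that was lost without BM_day7.1 (adjusted p = 0.065) or BM_day7.2 (0.062) and was 7.57 without BM_day3.3. Set against the mean of AM day 7, the list's median level was 56.6%, 55.5% and 18.3% in the day 7 libraries, and 4.91%, 12.1%, 6.21% and 6.85% in the day 3 libraries. Within library numbers up to 24 alone, 2 of the 24 members rose and the median change was 0.63, and within those from 26, 19 rose and the median was 2.80. Without BM_day7.1 or without BM_day7.2, 8 members rose.

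Cd9, a tetraspanin of this list, was close to evenly high, with 1637, 1724 and 1223 CPM at day 7, against 287, 512, 501 and 343 CPM at day 3, and rose by 1.90 ± 0.21 (adjusted p = 6.6e-06). Among macrophage transcription factors 5 of 24 rose and none fell, and the count of rising members was 2 without BM_day7.1 or BM_day7.2 and 3 without BM_day7.3. Besides Pparg they included Nr4a1, an orphan nuclear receptor induced by many stimuli, which had 973, 961 and 668 CPM at day 7, against 276, 539, 337 and 270 CPM at day 3 (1.29 ± 0.22, adjusted p = 0.00078). Klf4, a zinc finger factor of monocytes and macrophages, had 630, 651 and 646 CPM at day 7, against 18.9, 279, 256 and 204 CPM at day 3 (1.76 ± 0.45, adjusted p = 0.028), and lost its call without any of BM_day7.1 (adjusted p = 0.087), BM_day7.2 (0.092) or BM_day7.3 (0.075). Cebpb, which drives inflammatory and phagocyte genes, had 1182, 1198 and 875 CPM at day 7, against 609, 837, 691 and 629 CPM at day 3 (0.65 ± 0.15, adjusted p = 0.010), and lost its call without BM_day7.1 (adjusted p = 0.072) or BM_day7.2 (0.079). Of 17 growth factor receptors 1 rose and 1 fell (5.88% each), beside 3.09% and 0.898% of all genes. The receptor subunit for GM-CSF, Csf2ra, had 738, 751 and 666 CPM at day 7, against 340, 602, 536 and 526 CPM at day 3 (0.52 ± 0.15, adjusted p = 0.047), a call lost without each BM library but BM_day3.2, at adjusted p of 0.057 to 0.17.

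Genes of lipid handling changed singly. In the list of lipid uptake, storage and efflux 2 of 20 members rose (10%) and 1 fell (5%), beside 3.09% and 0.898% of all genes. In that of cholesterol synthesis 2 of 22 rose (9.09%), or 5 without BM_day3.1 and BM_day1.3 and 1 without BM_day7.1 or BM_day7.2. Abcg1, which exports cholesterol from macrophages, had 978, 995 and 661 CPM at day 7, against 209, 307, 405 and 328 CPM at day 3, and rose by 1.49 ± 0.23 (adjusted p = 0.00028). Hmgcs1, an early enzyme of cholesterol synthesis, had 131, 127 and 63.1 CPM at day 7, against 31.3, 32, 39.6 and 24.4 CPM at day 3, and rose by 1.75 ± 0.26 (adjusted p = 0.00019). Scd2, a fatty acid desaturase, had 36.2, 32.3 and 43.2 CPM at day 7, against 480, 91.3, 128 and 116 CPM at day 3. It fell by 2.45 ± 0.45 (adjusted p = 0.0019), or by 1.58 without BM_day3.1 (adjusted p = 0.0033), the library rich in fibroblast RNA, in which it was highest.

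Antiviral interferon-stimulated genes moved the other way. Of 35 members tested 15 fell and none rose, all 35 had a change below 0, and the list's median was −1.81 against 0.21 for all genes. Irf7, the factor that amplifies type I interferon production (ENSMUSG00000025498, chromosome 7, 141262706 to 141266481), had 41.0, 46.2 and 21.4 CPM at day 7, against 329, 151, 334 and 448 CPM at day 3. It fell by 3.12 ± 0.36 (adjusted p = 7.5e-06), and the groups lay apart in both ranges of library numbers. Oas3, which makes the second messenger that activates RNase L (ENSMUSG00000032661, chromosome 5, 120753098 to 120777661), had 15, 11.5 and 7.31 CPM at day 7, against 138, 56.1, 122 and 115 CPM at day 3, and fell by 3.25 ± 0.40 (adjusted p = 3.1e-05). Ifit3, an RNA-binding antiviral protein whose near-identical copy Ifit3b may share its reads, had 8.14, 8.37 and 2.06 CPM at day 7, against 104, 42.3, 67.2 and 63.2 CPM at day 3 (−3.47 ± 0.70, adjusted p = 0.0041). The most abundant member per kilobase, Ifitm3, which blocks virus entry, had 49.1, 55.1 and 25.4 CPM at day 7, against 466, 237, 200 and 450 CPM at day 3 (−2.96 ± 0.46, adjusted p = 0.00043). Rtp4, a zinc finger protein induced by interferon, had 8.71, 7.75 and 4.63 CPM at day 7, against 82.7, 70.1, 64.0 and 94.8 CPM at day 3 (−3.46 ± 0.54, adjusted p = 0.00037). In each of these 5 genes no day 7 library reached the lowest day 3 library, which for Oas3, Ifit3 and Rtp4 was a condition for naming them.

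The count of falling members ranged from 11 to 20 when each BM library was left out in turn, was 24 without BM_day3.1 and BM_day1.3, and was 14 when Y-linked RNA entered the fit as a covariate. Within library numbers up to 24 it was 2, from 26 it was 14, and with the 2 BM groups fitted alone it was 6. Ifnar1, a chain of the type I interferon receptor, had 153, 163 and 147 CPM at day 7, against 224, 244, 261 and 250 CPM at day 3 (−0.66 ± 0.19, adjusted p = 0.045), and its call was lost without each BM library but BM_day3.1, at adjusted p of 0.073 to 0.16.

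Interferon-inducible GTPases, which attack the vacuoles of intracellular microbes, and other targets of interferon-γ fell in 10 of 16 members, with none rising and a median of −2.23. Gbp2, a guanylate-binding protein (ENSMUSG00000028270, chromosome 3, 142620602 to 142638008), had 70.4, 75.3 and 95.0 CPM at day 7, against 457, 460, 520 and 1006 CPM at day 3, a fall of 2.93 ± 0.58 on the log2 scale (adjusted p = 0.0047). Gbp4, of the same family, had 10.5, 9.22 and 5.36 CPM at day 7, against 73.4, 64.6, 96.9 and 124 CPM at day 3 (−3.42 ± 0.60, adjusted p = 0.0012). Tgtp2, whose reads may be split with its copy Tgtp1, had 4.07, 3.43 and 5.46 CPM at day 7, against 124, 40.1, 37.1 and 47.4 CPM at day 3 (−3.85 ± 0.83, adjusted p = 0.0070), and was not called without BM_day7.1 (adjusted p = 0.051) or BM_day7.2 (0.055). For the whole list the summed level was 492 to 506 CPM at day 7 and 1918 to 3279 CPM at day 3. Within library numbers up to 24 none of the 16 was called, although all 16 had a change below 0, and from 26 on 6 fell. Without BM_day7.1, BM_day7.2 or BM_day7.3 the count was 6, 5 and 6, and with the 2 BM groups fitted alone it was 6.

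Antigen presentation on MHC class I followed in part. Of 13 genes of this pathway 7 fell, none rose and the median was −1.08. The count was 1 without BM_day7.1 and 2 without any of BM_day7.2, BM_day7.3 or BM_day3.4, and 0 with the 2 BM groups fitted alone. Psmb8, a catalytic subunit of the immunoproteasome that interferon-γ induces, had 108, 120 and 98.6 CPM at day 7, against 331, 238, 218 and 420 CPM at day 3 (−1.47 ± 0.28, adjusted p = 0.0025). The peptide transporter Tap1 had 112, 120 and 125 CPM at day 7, against 150, 306, 254 and 650 CPM at day 3 (−1.51 ± 0.34, adjusted p = 0.0087), lost without BM_day7.1 (adjusted p = 0.058). Psmb9, the partner of Psmb8, had 52.6, 49.1 and 34.3 CPM at day 7, against 87.1, 142, 71.5 and 162 CPM at day 3 (−1.35 ± 0.33, adjusted p = 0.020), and lost its call without BM_day3.4, BM_day7.1, BM_day7.2 or BM_day7.3, at adjusted p of 0.057 to 0.11. By edgeR no gene of the 14 of MHC class II presentation was called, 1 had an unadjusted p under 0.05, and DESeq2 called 0. H2-Ab1, a class II chain, had 2836, 2876 and 835 CPM at day 7, against 793, 2123, 2725 and 3055 CPM at day 3, with low values in BM_day7.3 and BM_day3.1.

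Stretches before the transcription starts of 3 of these genes are shown because they hold the letters of the interferon-stimulated response element (ISRE), searched for on both strands as GAAA, any 2 bases and GAAA again. They are the 200 bases before the start on the gene's strand, 5′ to 3′, from RefSeq promoters of GRCm38.p6, with matches in capitals. Oas3 is at chr5:120777660-120777859 on the minus strand, Ifit3 at chr19:34583329-34583528 and Gbp2 at chr3:142620463-142620662, both on the plus strand.
Oas3: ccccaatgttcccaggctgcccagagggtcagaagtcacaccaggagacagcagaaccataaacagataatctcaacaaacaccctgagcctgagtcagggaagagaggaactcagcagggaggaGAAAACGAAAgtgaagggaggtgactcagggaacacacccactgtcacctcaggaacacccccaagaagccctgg
Ifit3: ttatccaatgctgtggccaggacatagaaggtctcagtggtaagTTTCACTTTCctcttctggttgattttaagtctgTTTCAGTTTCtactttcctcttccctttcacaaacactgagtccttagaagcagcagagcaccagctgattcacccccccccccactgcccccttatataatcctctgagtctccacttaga
Gbp2: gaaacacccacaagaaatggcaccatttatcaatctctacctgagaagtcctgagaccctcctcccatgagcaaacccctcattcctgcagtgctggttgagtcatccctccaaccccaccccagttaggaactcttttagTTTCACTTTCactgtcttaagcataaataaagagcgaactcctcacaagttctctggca
The matches begin 75 bases before the start in Oas3, 156 and 122 before it in Ifit3 and 59 before it in Gbp2. Over windows of 300 bases (250 before to 50 after the start), 13 of 24 antiviral genes with an entry held a match (54.2%), as did 10 of 12 interferon-inducible GTPase genes (83.3%), against 3.99% of 27025 genes with an entry. The 300 bases of Irf7 held none. Among all genes with an entry, 24 of 117 that fell held the letters (20.5%), and 8 of 352 that rose (2.27%).

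Among transcripts of blood monocytes 5 of 18 fell and 1, Nr4a1, rose, and the list median was −1.54. The list's summed level overlapped between the groups, at 6596 to 10470 CPM at day 7 and 6722 to 11058 CPM at day 3. The count of falling members was 2 without any of BM_day3.4, BM_day7.1, BM_day7.2 or BM_day7.3. Ly6c2, part of the Ly6C antigen of inflammatory monocytes (ENSMUSG00000022584, chromosome 15, 75108158 to 75111970), had 27.9, 26.6 and 80.5 CPM at day 7, against 1046, 609, 807 and 1659 CPM at day 3. It fell by 4.52 ± 0.62 (adjusted p = 0.00017), or by 5.23 without BM_day7.3, although reads may be split between it and the close copies of its family. Ly6i and Ly6a, neighbours in that family, fell as well, by 4.62 ± 0.57 and 5.38 ± 0.85, and were among the 10 largest falls of all genes. Ly6a had 6.85, 7.88 and 7.83 CPM at day 7, against 300, 172, 181 and 598 CPM at day 3. Haptoglobin, Hp, which binds free haemoglobin, had 237, 218 and 418 CPM at day 7, against 2054, 938, 754 and 1462 CPM at day 3 (−2.16 ± 0.35, adjusted p = 0.00048). Ms4a4c, a membrane protein of monocytes, had 23.7, 23.5 and 3.19 CPM at day 7, against 25.4, 73.2, 76.2 and 219 CPM at day 3 (−2.54 ± 0.70, adjusted p = 0.040), and was not called without BM_day3.3, BM_day3.4 or any of the day 7 libraries, at adjusted p of 0.056 to 0.13.

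Several well-known monocyte and tissue macrophage transcripts were not called. Ccr2, the chemokine receptor that guides monocytes out of marrow and into inflamed tissue, had 285, 310 and 94.6 CPM at day 7, against 109, 240, 336 and 353 CPM at day 3 (−0.17 ± 0.57, adjusted p = 0.95), with full overlap. Itgam, the integrin CD11b, had 317, 311 and 591 CPM at day 7, against 919, 541, 401 and 629 CPM at day 3 (−0.62 ± 0.40, adjusted p = 0.42). C1qa, a complement chain made by tissue macrophages, had 760, 807 and 625 CPM at day 7, against 498, 1198, 1990 and 926 CPM at day 3 (−0.66 ± 0.45, adjusted p = 0.46). Apoe, which carries lipid, was the most abundant member of the tissue macrophage list per kilobase, with 8700, 8958 and 26338 CPM at day 7, against 6824, 10842, 20736 and 8030 CPM at day 3 (0.34 ± 0.51, adjusted p = 0.83). Among Fc and complement genes 2 of 16 fell (12.5%), and in the tissue macrophage list 1 of 20 rose and 1 fell (5% each). Of all genes 3.09% rose and 0.898% fell. The high-affinity IgG receptor Fcgr1 had 116, 117 and 117 CPM at day 7, against 368, 271, 295 and 379 CPM at day 3 (−1.49 ± 0.31, adjusted p = 0.0049). Fcgr4, an IgG receptor of monocytes, had 93.1, 91.8 and 30.5 CPM at day 7, against 350, 209, 189 and 403 CPM at day 3 (−2.0 ± 0.34, adjusted p = 0.00073). Complement factor B, Cfb, had 17.3, 16.1 and 14.7 CPM at day 7, against 99.8, 100, 51.5 and 122 CPM at day 3 (−2.54 ± 0.55, adjusted p = 0.0066).

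Inflammatory mediators divided, with 4 of 16 rising and 4 falling. The count of rising members was 1 without any of BM_day3.3, BM_day3.4, BM_day7.1 or BM_day7.2 and 7 without BM_day3.2. Nos2, the inducible nitric oxide synthase, had 2.94, 7.22 and 5.87 CPM at day 7, against 278, 191, 102 and 711 CPM at day 3, and fell by 5.91 ± 1.06 (adjusted p = 0.0025), or by 5.13 without BM_day3.4. The iron-trapping protein Lcn2 had 16.4, 13.4 and 19.7 CPM at day 7, against 1849, 410, 122 and 1009 CPM at day 3, and fell by 5.69 ± 0.82 (adjusted p = 0.00034), and its change was −4.96 without BM_day3.1. Lcn2 is also among the 14 neutrophil markers. Their sum, which includes it, was 170 to 496 CPM at day 7 and 597 to 5171 CPM at day 3, highest in BM_day3.1. Lcn2 alone gave 1009 of the 1448 CPM in BM_day3.4. The part of neutrophil RNA in its fall was not tested. Saa3, an acute phase protein, had 159, 159 and 807 CPM at day 7, against 5007, 4904, 3142 and 6504 CPM at day 3 (−3.71 ± 0.89, adjusted p = 0.020). Its call was lost without BM_day7.1 (adjusted p = 0.12) or BM_day7.2 (0.13), and its fall was 4.93 without BM_day7.3. In the other direction, Il1b, which encodes interleukin-1β, had 1895, 2010 and 1396 CPM at day 7, against 1188, 1258, 810 and 622 CPM at day 3 (0.87 ± 0.25, adjusted p = 0.044), lost without BM_day3.3, BM_day3.4, BM_day7.1 or BM_day7.2 at adjusted p of 0.10 to 0.17. Tnf had 198, 213 and 160 CPM at day 7, against 64.6, 165, 91.8 and 74.4 CPM at day 3 (0.94 ± 0.37, adjusted p = 0.15) and was not called.

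Chemokines also divided, with 3 of 20 rising and 1 falling. Cxcl1, which attracts neutrophils, had 159, 167 and 211 CPM at day 7, against 0.0825, 12.5, 7.49 and 9.64 CPM at day 3, and rose by 4.58 ± 0.68 (adjusted p = 0.00037). Ccl5, which attracts T cells and monocytes, had 17.4, 14.1 and 11.7 CPM at day 7, against 303, 369, 291 and 519 CPM at day 3, and fell by 4.68 ± 0.73 (adjusted p = 0.00057). Neither gene's groups overlapped, which was a condition for naming them.

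Genes of Toll-like receptor and NF-κB signalling rose in 6 of 19 members and fell in none, with a median of 0.43. Within library numbers up to 24 none rose, from 26 on 7 rose, with the 2 BM groups fitted alone 1 rose, and without BM_day7.1 or BM_day7.2 4 rose. Nfkbiz, a nuclear IκB protein needed for a subset of NF-κB targets, had 607, 631 and 493 CPM at day 7, against 120, 229, 278 and 126 CPM at day 3 (1.62 ± 0.28, adjusted p = 0.00093). Tnfaip3, the ubiquitin-editing enzyme A20, a brake on NF-κB, had 1019, 974 and 795 CPM at day 7, against 339, 456, 501 and 334 CPM at day 3 (1.19 ± 0.21, adjusted p = 0.0015). Dusp1, a phosphatase that switches off MAP kinases, had 1492, 1432 and 1254 CPM at day 7, against 494, 626, 532 and 552 CPM at day 3 (1.34 ± 0.19, adjusted p = 0.00013). Cd14, the LPS co-receptor, had 1705, 1774 and 1697 CPM at day 7, against 763, 1142, 837 and 788 CPM at day 3 (0.97 ± 0.21, adjusted p = 0.0064). In none of these 4 genes did the groups overlap, which for all but Cd14 was a condition for naming them.

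Immediate early and stress genes, which are induced within minutes by many stimuli and by tissue dissociation, rose in 11 of 16 members, with none falling and a median of 1.18. Egr1, a zinc finger factor, had 727, 747 and 745 CPM at day 7, against 37.4, 197, 171 and 114 CPM at day 3 (2.51 ± 0.42, adjusted p = 0.00095). Fosb, a subunit of AP-1, had 1346, 1280 and 1282 CPM at day 7, against 120, 412, 431 and 246 CPM at day 3 (2.11 ± 0.39, adjusted p = 0.0022). Egr2 had 256, 269 and 204 CPM at day 7, against 0.248, 71.7, 25.3 and 27.8 CPM at day 3 (2.96 ± 0.72, adjusted p = 0.022), and was not called without BM_day3.3 (adjusted p = 0.059), BM_day7.1 (0.075) or BM_day7.2 (0.079), while its rise was 3.77 without BM_day3.2. The list's summed level was 13526 to 17809 CPM at day 7 and 5152 to 9847 CPM at day 3, lowest in BM_day3.1. Without BM_day7.1 or without BM_day7.2 the count of rising members was 6, and within library numbers up to 24 it was 0, and it was 1 with the 2 BM groups fitted alone. Handling of the lungs is not described in the labels, and its part in these values was not tested.

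Because Tnfaip3 and Cxcl1 rose together, 200 bases before their starts are shown with matches to the κB letters (GGGA, any 4 bases and CC, on both strands) in capitals. Tnfaip3 is at chr10:19015411-19015610 on the minus strand, at the first of 2 starts in RefSeq GRCm38.p6, and Cxcl1 at chr5:90891045-90891244 on the plus strand.
Tnfaip3: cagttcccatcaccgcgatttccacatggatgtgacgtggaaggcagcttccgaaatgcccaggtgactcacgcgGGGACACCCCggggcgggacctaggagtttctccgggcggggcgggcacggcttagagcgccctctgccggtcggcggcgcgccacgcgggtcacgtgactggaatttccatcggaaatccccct
Cxcl1: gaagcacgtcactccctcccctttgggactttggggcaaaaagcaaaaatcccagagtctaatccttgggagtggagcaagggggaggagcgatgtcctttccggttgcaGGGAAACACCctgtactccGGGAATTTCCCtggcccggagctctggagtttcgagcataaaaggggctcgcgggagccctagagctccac
The match in Tnfaip3 begins 125 bases before the start. In Cxcl1 matches begin 90, 71 and 70 bases before it, and the last pair overlap on opposite strands. Over 300 bases, 11 of 13 TLR and NF-κB genes with an entry held the letters (84.6%), against 22.9% of all genes with one and 30.01% of the genes tested with one. Among all genes with an entry, 117 of 352 that rose held the letters (33.2%), and 35 of 117 that fell (29.9%), both close to the share of genes tested. The ISRE and κB letters were counted separately.

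Glycolytic genes were lower at day 7, with 8 of 22 members of the glycolysis and hypoxia list falling, none rising and a median of −0.94. Pkm, pyruvate kinase, had 835, 784 and 1185 CPM at day 7, against 3125, 2407, 1922 and 3964 CPM at day 3 (−1.61 ± 0.22, adjusted p = 9.6e-05). Pgk1, phosphoglycerate kinase, had 148, 147 and 224 CPM at day 7, against 566, 397, 312 and 661 CPM at day 3 (−1.48 ± 0.27, adjusted p = 0.0017). The hexokinase of blood cells, Hk3, had 71.1, 65.4 and 134 CPM at day 7, against 280, 261, 219 and 528 CPM at day 3 (−1.84 ± 0.33, adjusted p = 0.0016). In all 3 genes BM_day7.3 was the highest of day 7 but below every day 3 library, the latter being a condition for naming Pgk1 and Hk3. Within library numbers up to 24 none of the 22 was called and the median was −0.36, and from 26 on 11 fell and the median was −1.20. None was called with the 2 BM groups fitted alone, at a median of −0.96. No member of oxidative phosphorylation (26 tested) or mitochondrial fatty acid oxidation (19) was called, nor any of 30 cell cycle genes, by edgeR. At an unadjusted p under 0.05 there were 1, 0 and 0 such genes, and DESeq2 called 1, 0 and 0. The proliferation marker Mki67 had 95.9, 108 and 105 CPM at day 7, against 65.8, 114, 120 and 126 CPM at day 3 (−0.05 ± 0.29, adjusted p = 0.98).

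Growth factors, proteases and matrix genes rose in 4 of 20 members (20%) and fell in 1 (5%), beside 3.09% and 0.898% of all genes. Without any of BM_day3.2, BM_day7.1 or BM_day7.2, 2 rose. Plaur, the urokinase receptor, had 742, 768 and 576 CPM at day 7, against 237, 287, 195 and 229 CPM at day 3 (1.55 ± 0.17, adjusted p = 6.6e-06). Mmp19, a matrix metalloproteinase, had 256, 284 and 295 CPM at day 7, against 19.9, 84.0, 62.9 and 44.2 CPM at day 3 (2.40 ± 0.32, adjusted p = 9.2e-05). Areg, an EGF-family growth factor, had 47.5, 50 and 20.9 CPM at day 7, against 0, 1.96, 0 and 9.09 CPM at day 3 (3.83 ± 0.97, adjusted p = 0.025), lost without BM_day3.2 (adjusted p = 0.058), BM_day7.1 (0.081) or BM_day7.2 (0.084) and 5.86 without BM_day3.4. Tgfbi, a matrix protein made by monocytes, had 1945, 1904 and 1764 CPM at day 7, against 5491, 4461, 4402 and 5777 CPM at day 3 (−1.43 ± 0.20, adjusted p = 0.00012).

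Each list of this paragraph held 1 or 2 called members, beside 3.09% of all genes that rose and 0.898% that fell. The calls are given as single genes and not as results about the lists. Of 30 lysosomal genes 2 rose (6.67%). Ctsd, the protease cathepsin D, had 3538, 3332 and 9362 CPM at day 7, against 2087, 2557, 2301 and 2324 CPM at day 3 (1.22 ± 0.23, adjusted p = 0.0026), and Lipa, the acid lipase, had 417, 407 and 585 CPM, against 187, 265, 227 and 300 CPM (0.94 ± 0.21, adjusted p = 0.0087). Both calls were lost without BM_day7.3 (adjusted p = 0.065 and 0.076), which was highest in both genes. Of 21 efferocytosis genes 1 rose, Anxa1, a protein that limits inflammation, with 556, 560 and 521 CPM at day 7, against 418, 306, 159 and 306 CPM at day 3 (0.88 ± 0.22, adjusted p = 0.018), lost without BM_day7.1 (adjusted p = 0.068) or BM_day7.2 (0.071). Of 14 C-type lectins and scavenger receptors 1 rose, Clec7a, the β-glucan receptor Dectin-1, with 1664, 1710 and 1003 CPM at day 7, against 317, 644, 454 and 273 CPM at day 3 (1.79 ± 0.41, adjusted p = 0.013), lost without BM_day7.1 (adjusted p = 0.069) or BM_day7.2 (0.073). Of 20 genes of iron, haem and antioxidant defence 2 fell, the haem-degrading enzymes Hmox1 (−1.29 ± 0.35, adjusted p = 0.033) and Blvrb (−1.30 ± 0.32, adjusted p = 0.018). Hmox1 had 199, 210 and 312 CPM at day 7, against 498, 640, 360 and 855 CPM at day 3, and Blvrb had 51.6, 45.1 and 36.8 CPM, against 177, 61.1, 98.8 and 100 CPM. Each lost its call without 4 of the 7 BM libraries, at adjusted p of 0.059 to 0.16 for Hmox1 (BM_day3.2, BM_day3.4, BM_day7.1 and BM_day7.2) and 0.051 to 0.1 for Blvrb (BM_day3.1 and the day 7 libraries). In the peroxisome list 2 of 30 rose, or 5 without BM_day3.1 and BM_day1.3 and 1 without BM_day7.1 or BM_day7.2, and one of them, Pmp22, encodes a myelin and membrane protein and not a peroxisomal one, with 150, 166 and 286 CPM at day 7, against 33.2, 30.4, 11.3 and 25.9 CPM at day 3 (2.99 ± 0.43, adjusted p = 0.00016).

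**Figure D3:**
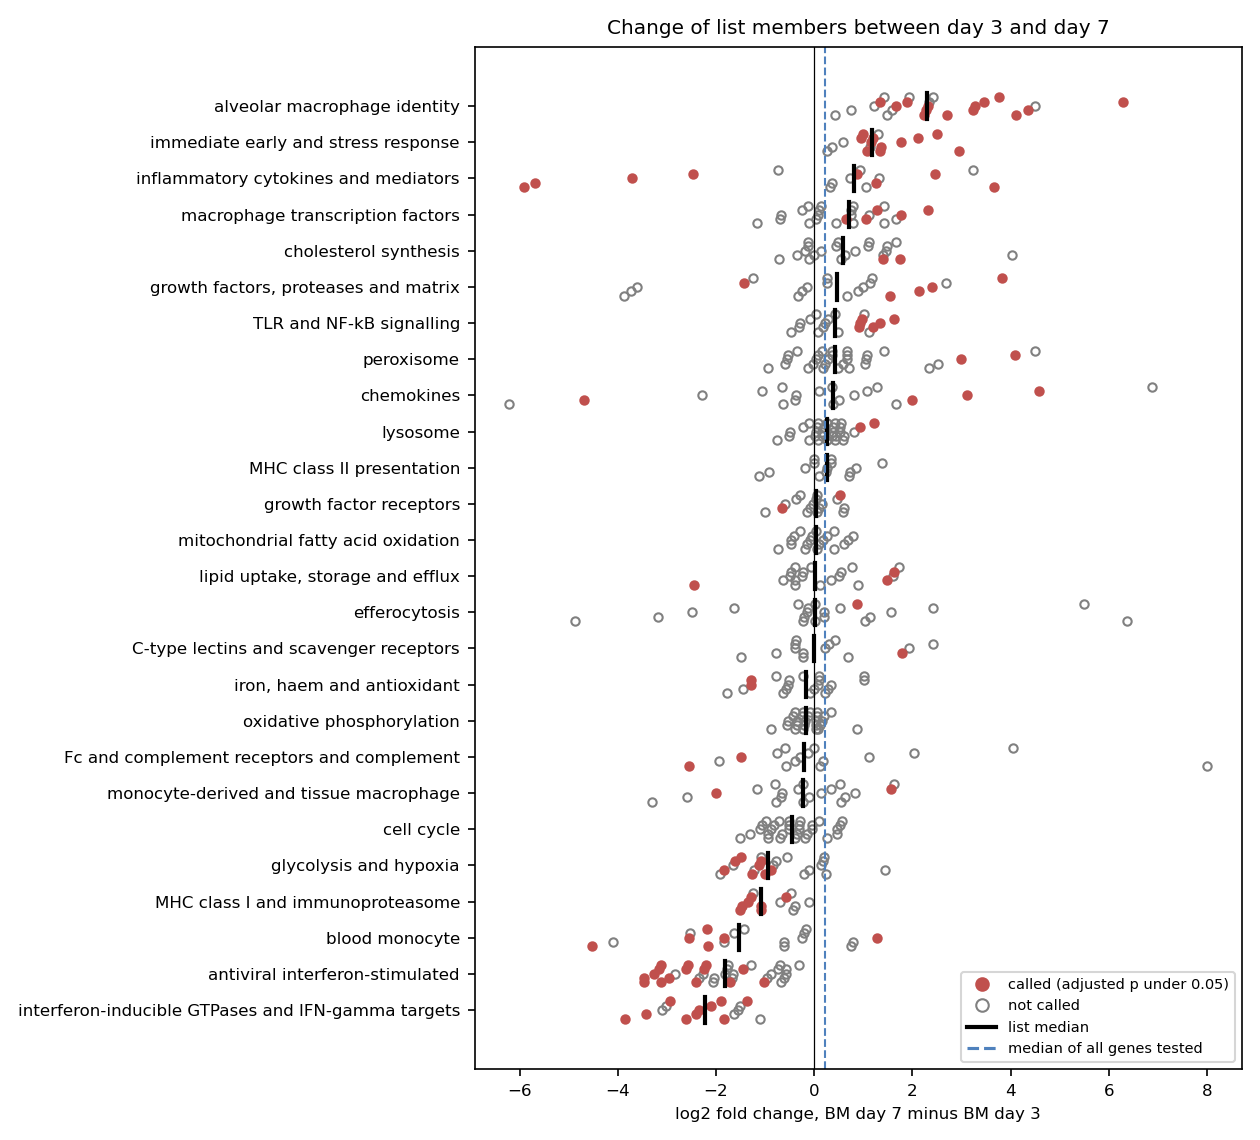
Log2 fold change (BM day 7 minus BM day 3) of the tested members of each gene list, with called members filled, others open, a black bar at the list median and a dashed line at the median of all genes, 0.21. Lists run from the interferon-inducible GTPases at the bottom (median −2.23) to alveolar macrophage identity at the top (2.29), and the lists in the middle hold few called members. Values beyond 8 are drawn at 8.

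Several called genes were absent or almost absent at day 3. The 10 named here have the largest fitted rises among genes with a day 7 mean of at least 5 CPM, an order that 0 counts at day 3 set and that is no measure of size. Of these, 9 had 0 counts in all 4 day 3 libraries, so their change is given as a lower bound against 3 counts over the group, which covers counting error only. Flvcr2, a transporter of haem and choline, had 45.4, 42.8 and 8.34 CPM at day 7 and was at least 800-fold higher. Ucp3, a mitochondrial carrier, had 39.8, 33.9 and 4.74 CPM and was at least 650-fold higher. The actin-binding protein Coro6 had 19.1, 17.9 and 1.65 CPM (at least 320-fold) and the serotonin receptor Htr2c 18.2, 17.5 and 0.721 CPM (at least 302-fold). Slc6a4, the serotonin transporter, had 45.7, 51.3 and 2.37 CPM at day 7, against 0.0825, 0, 0 and 0 CPM at day 3 (adjusted p = 0.00042), with counts in 1 of the 4 day 3 libraries. Maoa, which degrades serotonin and other amines, had 11.6, 11.7 and 9.06 CPM at day 7 (at least 268-fold). The phosphatase Ppm1j had 15.7, 16.3 and 0.618 CPM (at least 270-fold) and the factor Myrf 11.9, 7.59 and 2.06 CPM (at least 179-fold). In all of these BM_day7.3 was the lowest of day 7. Hal, histidine ammonia lyase, had 0.567, 0.204 and 258 CPM and coagulation factor F5 had 2.47, 3.67 and 20.2 CPM at day 7, so that both rested mainly on BM_day7.3, and neither was called without it (adjusted p = 0.18 and 0.090). F5 was also not called without any one of the other BM libraries, at adjusted p of 0.051 to 0.068.

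The remaining large falls were Susd2, with 0.361, 0.775 and 2.27 CPM at day 7, against 77.8, 22.7, 27.1 and 21.2 CPM at day 3 (−5.06 ± 1.25, adjusted p = 0.019), and the matrix protein Spon1, with 5.92, 1.10 and 0.412 CPM, against 73.4, 47.2, 42.2 and 53.6 CPM (−4.42 ± 0.97, adjusted p = 0.0078). Susd2 was not called without BM_day7.1 (adjusted p = 0.11) or BM_day7.2 (0.11), and its change was −4.41 without BM_day3.1 and −6.0 without BM_day7.3. Spon1 was not called without BM_day7.2 (adjusted p = 0.069), and its fall was 6.08 without BM_day7.1.

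The change from day 3 to day 7 was then set against that of the resident cells, by testing the difference between the 2 changes (BM minus AM). It was called for 62 genes (0.362%), of which 58 were higher (0.338%) and 4 lower (0.0233%), and 35 of the 62 were called in BM with the same sign. Leaving out 1 library at a time gave 17 to 115 calls, with 17 without AM_day7.3 or AM_day7.4 and 115 without BM_day3.2. Of the 19 genes with a called difference that are named here, 6 kept the call without each of the 14 libraries compared, and these were Ccl6, Atp6v0d2, Ly6c2, Itgam, Pmp22 and Cchcr1. AM day 3 libraries held 194 to 227 CPM of Y-linked RNA and AM day 7 libraries 0.152 to 4.09 CPM, so time and sex cannot be told apart in AM. Ccl6 differed by 2.58 ± 0.38 (adjusted p = 0.00096), since in AM it changed by 0.53 ± 0.27 and ranged from 3699 to 3912 CPM at day 7 and from 1646 to 3791 CPM at day 3. Atp6v0d2 differed by 2.95 ± 0.47 (adjusted p = 0.0022), with 1056 to 1161 CPM in AM day 7 and 681 to 1050 CPM in AM day 3. Cd9 (1.31 ± 0.30, adjusted p = 0.048), Nfkbiz (1.72 ± 0.39, adjusted p = 0.048) and Hmgcs1 (1.75 ± 0.36, adjusted p = 0.030) also differed, but lost the call without 8 to 11 of the 14 libraries, at adjusted p of up to 0.153, 0.194 and 0.126. Of the list of alveolar macrophage identity 2 of 24 members differed in this test, and Pparg (1.40 ± 0.48, adjusted p = 0.22) and Siglecf (1.66 ± 0.79, adjusted p = 0.42) did not pass it.

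Some inflammatory and monocyte genes also had a positive difference, in their case with lower mean values at day 7 in both cell types and a larger drop in AM. Neutrophil markers, Lcn2 among them, summed to 586 to 1176 CPM in AM day 3 and 86.4 to 124 CPM in AM day 7. The part of RNA from other cells in the drops in AM was not tested. Ly6c2 differed by 4.73 ± 0.76 (adjusted p = 0.0040), with 0.581 to 1.52 CPM in AM day 7 and 339 to 1189 CPM in AM day 3, a change of −9.25 there. Saa3 differed by 5.64 ± 1.12 (adjusted p = 0.031), with 2.89 to 8.03 CPM in AM day 7 and 1584 to 6074 CPM in AM day 3, and lost the call without 8 of the 14 libraries, at adjusted p of up to 0.118. Itgam differed by 3.86 ± 0.56 (adjusted p = 0.00096), with 10.2 to 23.8 CPM in AM day 7 and 271 to 447 CPM in AM day 3. Pmp22 differed by 5.01 ± 0.60 (adjusted p = 0.00012), since it rose in BM by 2.99 and fell in AM by 2.02, with 16.4 to 34.6 CPM in AM day 7 and 57.8 to 160 CPM in AM day 3. The 5 largest positive differences among genes with at least 5 CPM, Caskin2, Ucp3, Tns2, Cchcr1 and Htr2c, were of genes with 0 counts in all BM day 3 libraries, at adjusted p of 0.0085 to 0.049. Caskin2 and Tns2 lost the call whichever of the 14 libraries was left out. All 4 negative differences were of genes with higher values in AM day 7 than in AM day 3, of which Acap1 alone was called there, and each lost its call without 10 to 13 of the 14 libraries. Acap1, a GTPase-activating protein, had 48.6 to 64.8 CPM in AM day 7 and 4.27 to 7.38 CPM in AM day 3, and 8.24, 10.7 and 14.5 CPM in BM day 7, against 21.8, 8.58, 9.07 and 9.64 CPM in BM day 3 (difference −3.37 ± 0.71, adjusted p = 0.032). Ace, the angiotensin-converting enzyme of patrolling monocytes, fell in BM, with 67.1, 72.3 and 17.0 CPM at day 7, against 73.4, 288, 124 and 258 CPM at day 3 (−1.83 ± 0.52, adjusted p = 0.0497), and differed by −3.42 ± 0.74 (adjusted p = 0.044). Its BM call was lost without each BM library but BM_day3.1, at adjusted p of 0.055 to 0.18. Hip1r, an adaptor of endocytosis, differed by −3.90 ± 0.84 (adjusted p = 0.037) and the collagen Col4a1 by −5.80 ± 1.32 (adjusted p = 0.048). In BM, Col4a1 had 10.3, 11.7 and 2.68 CPM at day 7, against 163, 35.2, 31.1 and 15 CPM at day 3, highest in BM_day3.1.

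The interferon-stimulated genes changed in both cell types. In AM the antiviral list had a median change of −1.99, 17 of 35 fell and none rose (1.35% and 0.233% of all genes), beside −1.81 and 15 in BM, and none of the 35 differed between the cell types in the test. Among the 16 GTPase and interferon-γ genes, 6 fell in AM with a median of −2.19, and none differed. A test that misses the threshold does not show that the changes were equal.

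**Figure D4:**
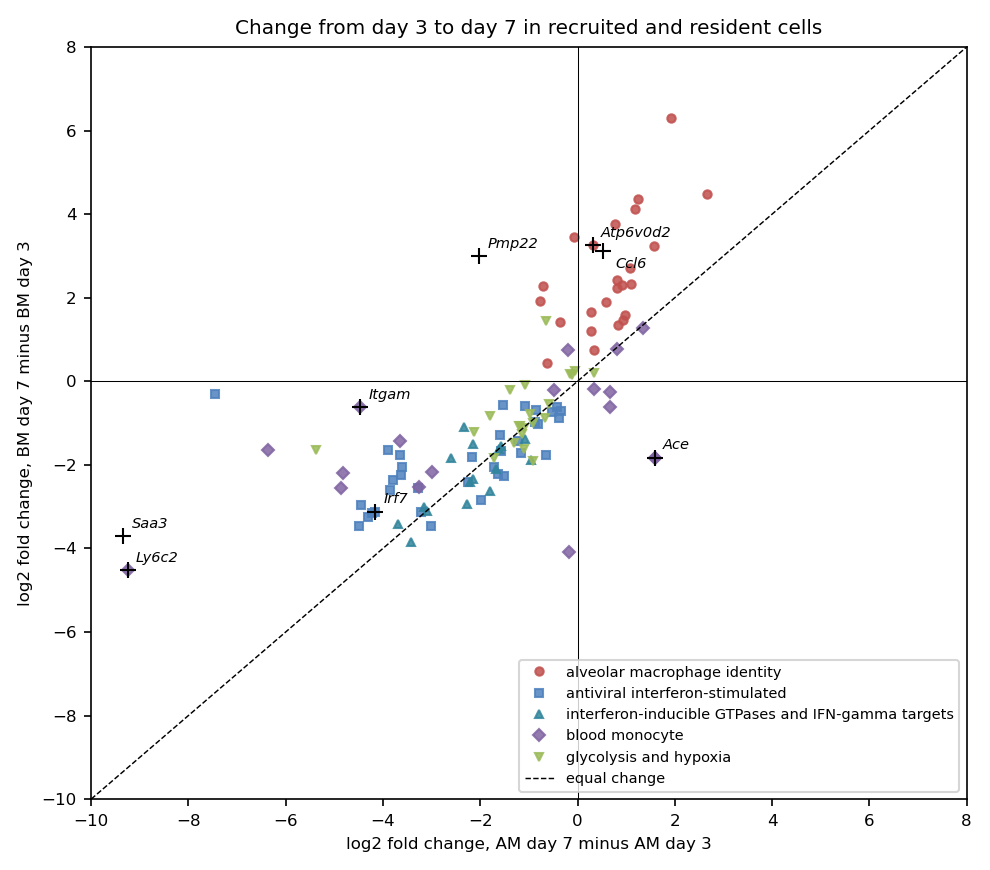
Log2 fold change from day 3 to day 7 in BM (vertical) against AM (horizontal) for the members of 5 gene lists, with a dashed line at equal change. Crosses mark Ccl6, Atp6v0d2, Ly6c2, Saa3, Itgam, Irf7, Ace and Pmp22. Most alveolar macrophage identity genes lie above the line, most interferon-stimulated genes lie below 0 on both axes, and Ly6c2, Saa3 and Itgam lie far to the left, where AM fell further.

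**Figure D5:**
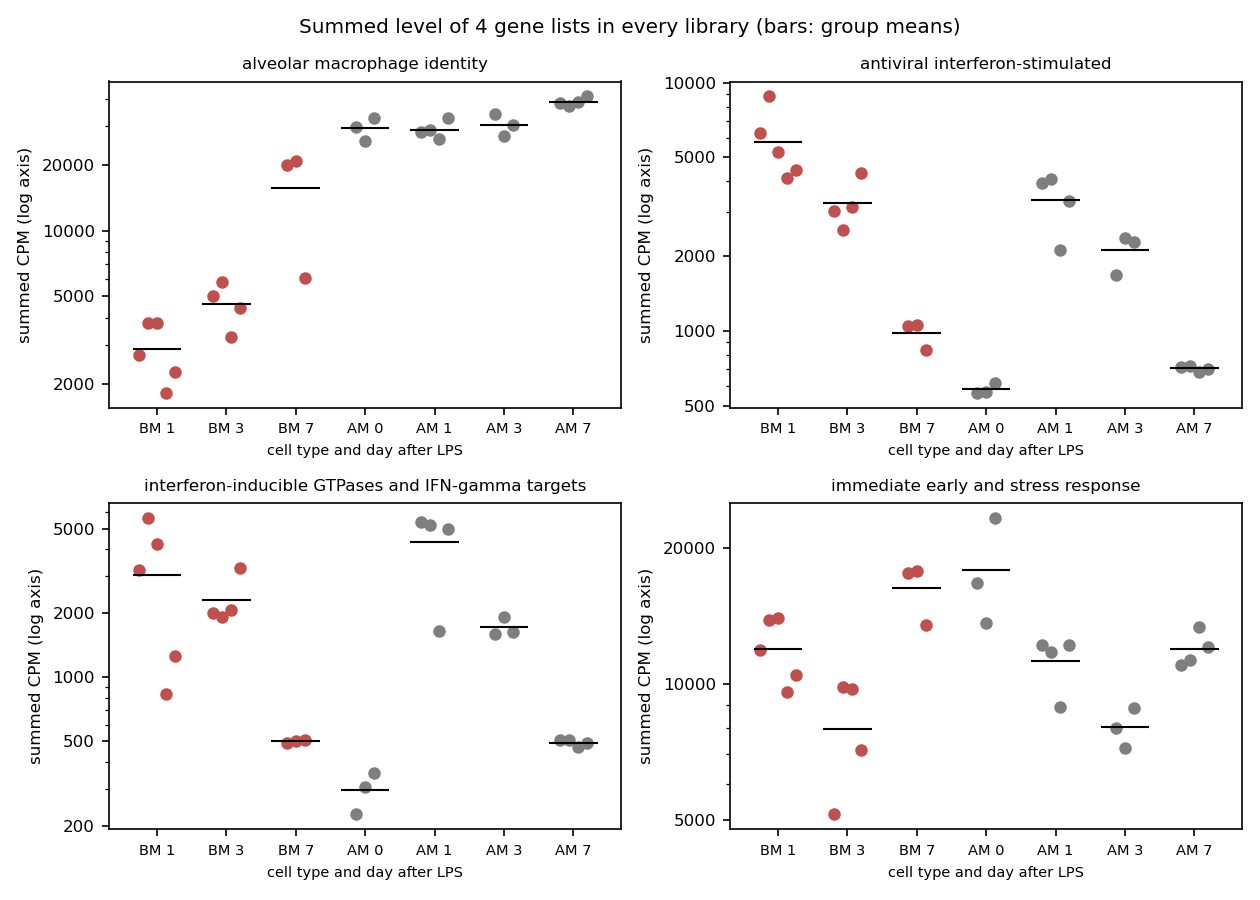
Summed CPM on a log axis of 4 gene lists in each of the 26 libraries, by cell type and day, with BM in red, AM in grey and bars at group means. The identity list reaches 6100 to 20793 CPM in BM day 7, against 3254 to 5811 CPM in BM day 3, with BM_day7.3 the low point, and stands at 37117 to 41030 CPM in AM day 7. The antiviral list stands at 841 to 1058 CPM in BM day 7, against 2539 to 4342 CPM in BM day 3.

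Markers of other cell types were mostly not called, but neutrophil markers were lower at day 7. Of 12 tested 2 fell (16.7%, against 0.898% of all genes) and none rose. Of the 12, 11 had a change below 0, and the median was −3.11. The summed levels of the list, given above, did not overlap between the groups, but this rests on Lcn2. It gave 1009 of the 1448 CPM of BM_day3.4 and 19.7 of the 496 CPM of BM_day7.3, and without it the sums overlap. Fibroblast markers summed to 10.1 to 63.4 CPM at day 7 and to 36.7 to 372 CPM in 3 day 3 libraries, but to 28448 CPM in BM_day3.1. Col1a1 had 7.01, 12.1 and 2.88 CPM at day 7, against 14976, 29.9, 152 and 5.42 CPM at day 3, and Col1a2 had 11.8, 14.3 and 0.927 CPM, against 12125, 78.7, 136 and 8.88 CPM. Neither was called (adjusted p = 0.094 and 0.093). The neutrophil protein S100a9 had 3.3, 4.08 and 108 CPM at day 7, against 1251, 97.3, 73.1 and 16.4 CPM at day 3 (adjusted p = 0.17). Vwf, of endothelium and platelets, had 151, 124 and 297 CPM at day 7, against 89.4, 33.2, 16.1 and 14 CPM at day 3 (2.32 ± 0.51, adjusted p = 0.0078), lost without BM_day7.3 (adjusted p = 0.058) and 3.18 without BM_day3.1, while the endothelial cadherin Cdh5 had 2.88, 3.22 and 1.54 CPM at day 7, against 31.6, 11.1, 4.28 and 4.66 CPM at day 3. Of 12 T and NK cell markers 1 rose, a call lost without any 1 of the BM libraries, and their sum was 8.03 to 29.4 CPM at day 7 and 0 to 33 CPM at day 3. No B cell, dendritic cell or lung epithelial marker was called by edgeR, while 1, 1 and 0 had an unadjusted p under 0.05 and DESeq2 called 1, 1 and 0. Sums for lung epithelium were 99.5 to 144 CPM at day 7 and 64.8 to 186 CPM at day 3.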

How the data were processed

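Stranded poly(A)-selected RNA-seq libraries were made from lung macrophages, per the labels' protocols. The authors deposited raw read counts per gene. The submitters' processing notes name the build GRCm38, the aligner HISAT2 2.1.0, the counter featureCounts 2.0.0, Trimmomatic 0.39 and FastQC 0.11.9, while settings, annotation release and strand setting are not given in the sources used here, so overlapping and near-identical genes are uncertain. Counts were analysed in edgeR 4.0.16 (R 4.3.3) with TMM scaling, a filter for genes with too few counts (filterByExpr, minimum 10; 17143 of 55487 kept) and the robust quasi-likelihood F test on all 26 libraries in 7 groups, which share the estimate of spread. SE is the absolute log2 fold change over the square root of F, and adjustment was by Benjamini-Hochberg across every gene tested. Mean levels between genes were compared per kilobase of exon. The code was tested on simulated counts. The members and lists were chosen with earlier results of these data known. Named genes are the markers, up to 3 called members of each list with the largest change, its most abundant member, the 10 largest rises and falls with at least 5 CPM and no overlap, and the 5 largest differences between cell types. The called list members were also limited to at least 5 CPM and no overlap, so their lack of overlap is no result. Some uncalled members named by that rule are left out, and other called members are only counted. Chil3, Cidec, Abcg1 and Nr4a1 were named by that rule, and so was Cd9, as the lowest called difference after the 4 negative ones. Car4, Krt79, Marco and similar cell type markers were not picked by their change. All of these were described after their values were seen. Alternatives used DESeq2 1.42.0, other scalings, filters and sets of libraries.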

Additional observations from a re-analysis of the deposited data

Results flagged for a closer look

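In 10 of the 93 genes checked, 1 day 3 library stood apart from the other 3 by Dixon's criterion, which flags about 1 group in 20 by chance. In BM_day3.1 these were Col1a1 at 14976 CPM, Col1a2 at 12125 CPM, S100a9 at 1251 CPM, Scd2 at 480 CPM, Col4a1 at 163 CPM, Tgtp2 at 124 CPM, Susd2 at 77.8 CPM, Acap1 at 21.8 CPM and Slc6a4 at 0.0825 CPM. The other day 3 libraries held no Slc6a4 counts, so any count would have set that flag, and it carries no information. In BM_day3.4 it was Gbp2 at 1006 CPM.

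The change between days 7 and 3 differed between BM and AM, by the test of the difference itself, for 19 of the genes named. On the log2 scale the difference (BM minus AM) was 5.64 for Saa3, 5.01 for Pmp22, 4.73 for Ly6c2, 3.86 for Itgam, 2.95 for Atp6v0d2, 2.58 for Ccl6, 1.75 for Hmgcs1, 1.72 for Nfkbiz and 1.31 for Cd9. It was −5.80 for Col4a1, −3.90 for Hip1r, −3.42 for Ace and −3.37 for Acap1. For genes with 0 counts in BM day 3 only the adjusted p is given, which was 0.0085 for Cchcr1, 0.017 for Coro6, 0.019 for Htr2c, 0.038 for Ucp3, 0.048 for Tns2 and 0.049 for Caskin2. Time and sex cannot be told apart in AM, so they cannot be told apart in these differences either.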

How the results depend on the processing

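Of 80 called genes named in the text, 52 kept the call without each single BM library and 28 lost it without at least 1. Against 683 genes called between BM day 7 and day 3, there were 1678 with the DESeq2 Wald test, 1190 without BM day 1, 71 within library numbers up to 24 and 465 within those from 26, 310 with BM_day7.1 and BM_day7.2 summed, and 41 with the compared groups alone (1361 at unadjusted p under 0.05). Leaving out 1 library gave 308 to 747. Without BM_day3.1 and BM_day1.3 there were 950. Against 62 calls for the difference between BM and AM, there were 40 with DESeq2 size factors, 36 with no filter on low counts, 663 with the DESeq2 Wald test, 323 with the compared groups alone, 168 without BM day 1, 18 with the Y-linked level as covariate, 104 without BM_day3.1 and BM_day1.3, 30 with the summed libraries and 17 to 115 leaving out 1 library. The cause was not tested.

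Whether replicate numbers pair the libraries could not be decided. Same-numbered libraries correlated at 0.0087, 0.030 and −0.021 by title and 0.011, 0.025 and 0.047 by description, and all pairs ranged from −0.036 to 0.047. These values are of deviations from the means of groups of 3 and 4 libraries, too few to show a shared animal or preparation. With the title numbers as a replicate block edgeR called 0 genes (557 at unadjusted p under 0.05), and with the description numbers as block 169, of which 84 rose and 85 fell.

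Some uncalled genes changed sign. Apoe was −0.70 within library numbers from 26 and −0.39 to 0.79 leaving out 1 library, lowest without BM_day7.3. Ccr2 was 0.12 with the Y-linked covariate, 0.0090 with the title block and up to 0.20 (0.028 without BM_day3.4) leaving out 1 library. Mki67 was 0.11, 0.087, 0.24 within library numbers up to 24 and −0.21 to 0.065 leaving out 1 library. H2-Ab1 was −0.066 with DESeq2 size factors or Wald test, −0.065 with library size alone, −0.015 with no filter, −0.0036 with the stricter filter, −0.0080 with the groups alone, −0.45 with the description block, −0.26 without BM_day3.1 and BM_day1.3, −0.80 and −0.014 within the lower and upper numbers, −0.22 with the summed libraries and −0.26 to 0.40 leaving out 1 library. Of called genes, Chil3 was −0.85 within library numbers up to 24.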
